A study of Mus musculus with 95 samples.

Results

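Ccl2, Ccl7, Ccl8 and Ccl9 are 4 chemokine genes of mouse chromosome 11 that were measured in mouse lung during exposure to Pneumocystis murina, a lung fungus of mice, through cohousing with an infected seeder mouse. They were taken as the probe sets that the array annotation pairs with 1 of these symbols alone. That gave 4 of the 12487 probe sets and 4 of the 8252 genes tested, with 1 probe set each: 102736_at for Ccl2 (Entrez gene 20296), 94761_at for Ccl7 (20306), 92459_at for Ccl8 (20307) and 104388_at for Ccl9 (20308). Total RNA of lung homogenate from 95 mice, labelled as 8-week-old females, was hybridised to 1 array each. Of these mice, 60 had been exposed by cohousing and 35 were unexposed. Exposed CD40L-KO mice, which lack CD40 ligand, were taken at days 32 (3 mice), 35 (4 mice), 39 (2 mice) and 75 (3 mice). Exposed C57BL/6 mice were taken at days 7 (8 mice), 14 (8 mice), 21 (6 mice), 32 (3 mice), 34 (10 mice), 41 (10 mice) and 75 (3 mice). Unexposed CD40L-KO mice were taken at day 32 (3 mice) and, for the experiment of day 35, under the label day 14 (5 mice). Unexposed C57BL/6 mice were taken at days 7 (4 mice), 14 (6 mice), 21 (5 mice), 32 (2 mice), 34 (5 mice) and 41 (5 mice). Unexposed mice sat in cages of their own in the experiments of days 7 to 41, except that nothing is stated on the cages of the day 35 experiment, and the labels do not give the cage of a mouse. Cage and exposure therefore cannot be told apart, and p-values treat the mice as independent.

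CC chemokines are small secreted proteins that draw white blood cells along a gradient by binding receptors on their surface. Ccl2 and Ccl7 are ligands of Ccr2, through which inflammatory monocytes leave the bone marrow and enter tissue. Ccl8 belongs by sequence to the same monocyte chemoattractant proteins, but in the mouse it acts mainly through Ccr8, a receptor of some T cells and macrophages. Ccl9 is a rodent chemokine made by myeloid cells and binds Ccr1. CD40 ligand, absent in the CD40L-KO strain, is displayed by activated helper T cells and engages CD40 on B cells, dendritic cells and macrophages.

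The genes sit in a pair of chemokine gene blocks on chromosome 11. In the RefSeq gene table the first block runs Ccl2, Ccl7, Ccl11, Ccl12, Ccl8 and Ccl1, and the second runs Ccl5, Ccl9, Ccl6, Ccl3 and Ccl4. Of the 4 genes, Ccl8 and Ccl9 matched the RefSeq promoter table of mouse build GRCm38.p6, and their 250 bases before the gene start are shown to place known motifs. Capitals mark matches, on either strand, to the searched letters: TATAAA, the AP-1 letters TGANTCA, the gamma-activated site TTCNNNGAA, an NF-kappaB motif and an interferon-stimulated response element.
Ccl8 promoter, chr11:82114935-82115184, plus strand: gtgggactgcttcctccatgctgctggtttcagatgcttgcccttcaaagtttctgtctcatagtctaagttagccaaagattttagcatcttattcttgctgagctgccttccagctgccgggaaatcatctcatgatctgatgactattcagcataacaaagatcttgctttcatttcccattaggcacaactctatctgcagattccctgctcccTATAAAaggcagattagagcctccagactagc
Ccl9 promoter, chr11:83578637-83578886, minus strand: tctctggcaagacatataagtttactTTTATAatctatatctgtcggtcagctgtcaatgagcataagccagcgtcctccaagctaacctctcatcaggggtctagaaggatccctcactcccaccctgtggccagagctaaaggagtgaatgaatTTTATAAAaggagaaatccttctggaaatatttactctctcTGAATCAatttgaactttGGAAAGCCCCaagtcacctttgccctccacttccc
In the Ccl8 window TATAAA, which 12.4% of 32851 promoters hold, lay 32 to 27 bases before the start and none of the other letters matched. The Ccl9 window held a match to the NF-kappaB motif on the opposite strand 35 to 26 bases before the start, which 1.41% of promoters hold. It also held TGAATCA 53 to 47 bases before the start (6.75% of promoters hold the AP-1 letters). TATAAA was found 92 to 87 bases before its start, overlapping a match on the opposite strand at 94 to 89, and again on the opposite strand at 224 to 219. The gamma-activated site (7.02% of promoters) and the interferon-stimulated response element (2.98%) were in neither window. A match describes letters and does not show that a factor binds there.

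The array medians lay between 35.5 and 46.3 intensity units. Cd40lg lay between 3.05 and 3.75 log2 units on all 95 arrays in both strains, close to the floor of 3, so it does not check the strain labels. Transcripts of squamous epithelium, a tissue foreign to lung, gave a mean log2 level of 6.82 or more over 13 genes on 16 arrays, and of 5.19 or less on the remaining 79. Those 16 included 1 of 3 exposed and 2 of 3 unexposed CD40L-KO mice of day 32, and 3 of 10 exposed and 4 of 5 unexposed C57BL/6 mice of day 34. Eif2s3y of the Y chromosome exceeded Xist on 17 arrays although the mice are labelled female. They make up 5 whole groups, which are the exposed C57BL/6 mice of day 75, the exposed CD40L-KO mice of days 35, 39 and 75 and the unexposed CD40L-KO mice of day 14. Levels below are deposited intensities or log2(intensity + 8). Differences are in log2 units with limma's standard error (SE) and a p-value adjusted over 8252 genes, and a gene is called where that p is under 0.05. The added 8 understates the change of dim genes. Whether the values of groups overlap is given for the 4 chemokines alone, as the share of all genes without overlap was not counted. In groups of 2 or 3 mice such a gap can arise without a difference. A change in a homogenate can come from more or fewer cells of a type or from more or less RNA per cell, and these cannot be told apart.

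All 4 chemokines were highest in exposed C57BL/6 lungs of day 32, followed by those of day 34. On the 23 arrays of exposed C57BL/6 mice of days 32 to 41, Ccl8 lay above the brightest of all 35 unexposed arrays (52.2) in 23 cases. Ccl9 exceeded the brightest unexposed array (229) on 21 of these 23 arrays, Ccl2 (29.8) on 18 and Ccl7 (11.5) on 17. None of the 22 arrays of exposed C57BL/6 mice of days 7 to 21 exceeded that mark for any of the 4 genes. On the 9 arrays of exposed CD40L-KO mice of days 32 to 39 the mark was passed by Ccl7 on 2 arrays, by Ccl9 on 1 and by Ccl2 and Ccl8 on 0.

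Ranked over the 19 groups, mean Ccl2 was 8.31 ± 1.23 log2 units in exposed C57BL/6 mice of day 32 (SD, n = 3), 6.73 ± 0.50 at day 34 (n = 10) and 5.38 ± 0.38 at day 41 (n = 10). The other 16 groups lay between 4.10 and 5.31. In that order the groups of days 34 and 41 were the neighbours whose means differed by more than the sum of their SDs. For Ccl7 the exposed C57BL/6 groups of day 32, at 7.27 ± 1.23, and of day 34, at 5.31 ± 0.50, were set apart in this way from each other and from the next group. The remaining 17 groups held Ccl7 between 3.34 and 4.23, near the floor of 3, so differences among them are poorly resolved. For Ccl8 no pair of neighbours was apart by the sum of their SDs. Its order was led by exposed C57BL/6 mice of day 32 at 8.86 ± 0.66, day 34 at 8.44 ± 0.38 and day 41 at 7.57 ± 0.56, then by exposed CD40L-KO mice of day 75 at 7.31 ± 0.36. For Ccl9 the order was led by the same 4 groups, at 9.85 ± 0.92, 8.83 ± 0.89, 8.53 ± 0.71 and 8.33 ± 0.28. The next group, exposed CD40L-KO mice of day 35, had 7.69 ± 0.23 and was apart from those of day 75 by more than the sum of the SDs.

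**Figure D1:**
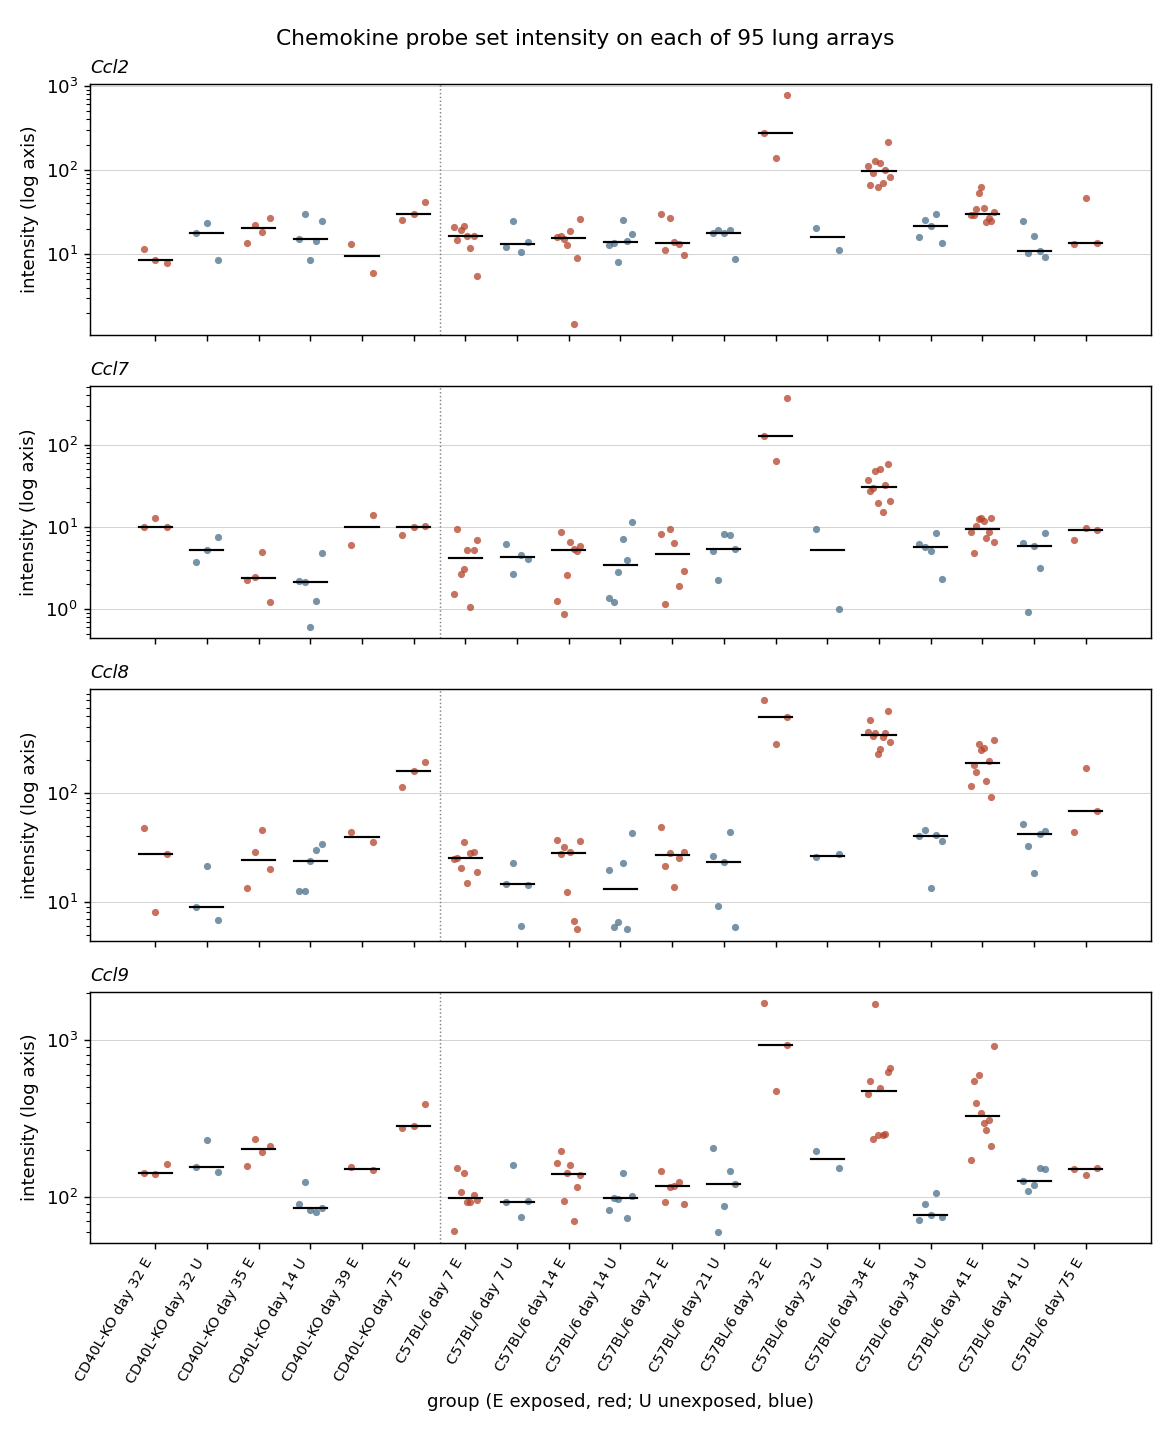
Intensity of the 4 chemokine probe sets on a log axis for each of the 95 arrays, by group along the horizontal axis; points are mice, black bars are group medians, red is exposed (E), blue is unexposed (U), and CD40L-KO groups stand left of the dotted line. Exposed C57BL/6 mice of days 32 and 34 stand highest in each panel, and Ccl8 lies above the brightest unexposed array, 52.2, on the 23 arrays of exposed C57BL/6 mice of days 32 to 41.

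Day 32 was the earliest day at which any of the 4 genes was called in C57BL/6 mice, and all 4 were higher in exposed lungs. The earlier days belong to another experiment, so day and experiment cannot be told apart in that order. Ccl2 had intensities of 272, 137 and 774 in the 3 exposed mice, against 20.3 and 11.3 in the 2 unexposed mice. Ccl7 had 128, 62.8 and 373 in exposed mice, against 9.45 and 1.01 in unexposed mice. In both genes exposed mouse 3 was highest and exposed mouse 2 lowest, and the groups did not overlap. Ccl8 had 701, 277 and 492 in exposed mice, against 25.9 and 27.2 in unexposed mice. Ccl9 had 1723, 473 and 927 in exposed mice, against 197 and 154 in unexposed mice. For Ccl8 and Ccl9 exposed mouse 1 was highest, mouse 2 was again lowest, and the groups again did not overlap.

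All 4 of the 4 genes were called higher at day 32, against 1.35% of all genes. Ccl2 rose by 3.76 (SE 0.56, adjusted p = 0.0135), Ccl7 by 3.62 (SE 0.55, adjusted p = 0.0152), Ccl8 by 3.75 (SE 0.51, adjusted p = 0.0104) and Ccl9 by 2.33 (SE 0.42, adjusted p = 0.0258). Among the rises of all 8252 genes these ranked 4, 6, 5 and 15. The calls rest on 2 unexposed arrays: without replicate 1 or without replicate 2 of that group 0 of the 4 genes were called, with adjusted p between 0.0721 and 0.149 and differences between 2.16 and 4.10. Ccl9 also lost its call without exposed replicate 3 (2.32, adjusted p = 0.0875). The 3 arrays with squamous transcripts of day 32 all came from CD40L-KO mice; leaving them out of the shared fit kept these 4 differences and moved the adjusted p to between 0.0758 and 0.103.

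In CD40L-KO mice of day 32 none of the 4 genes was called. Ccl2 had 11.6, 8.53 and 7.89 in exposed mice, against 17.7, 23.5 and 8.51 in unexposed mice. Ccl7 had 9.95, 12.7 and 9.82 in exposed mice, against 3.72, 5.17 and 7.53 in unexposed mice. Ccl7 did not overlap between the groups, but all 6 values lay within the range in which unexposed lungs of the series fell, apart from the exposed mouse at 12.7. Ccl8 had 47.8, 8.01 and 27.4 in exposed mice, against 8.91, 21.4 and 6.78 in unexposed mice. Ccl9 had 141, 139 and 161 in exposed mice, against 155, 229 and 145 in unexposed mice, and overlapped, as Ccl2 and Ccl8 did. The differences were -0.46 for Ccl2 (95% interval -1.57 to 0.65), 0.49 for Ccl7 (-0.61 to 1.58), 0.70 for Ccl8 (-0.32 to 1.73) and -0.22 for Ccl9 (-1.06 to 0.62). Limma called 0.0727% of all genes in this comparison; at an unadjusted p under 0.05 it had 0 of the 4 genes and 13.9% of all genes. These intervals end below the lower ends of the C57BL/6 intervals, which were 2.52, 2.40, 2.61 and 1.40. The median difference of 13 squamous transcripts was -1.57 and that of 13 skeletal muscle transcripts -1.59 in this comparison, and their part was not tested here.

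The strains were compared in 2 ways. Between exposed mice of day 32, CD40L-KO lungs were lower than C57BL/6 lungs in all 4 genes, by log2 differences of -4.19 for Ccl2 (SE 0.50, adjusted p = 0.00357), -3.04 for Ccl7 (SE 0.49, adjusted p = 0.013), -3.88 for Ccl8 (SE 0.46, adjusted p = 0.00357) and -2.57 for Ccl9 (SE 0.38, adjusted p = 0.00833). Of all genes 1.85% were called lower. Without the arrays that carry squamous transcripts the adjusted p of these 4 lay between 0.0533 and 0.126, and Ccl7 lost its call without CD40L-KO exposed replicate 2 (adjusted p = 0.0572) or replicate 3 (0.0528). The difference between the exposure effects of the strains was tested as well, and none of the 4 genes passed. It was -4.22 for Ccl2 (SE 0.75, adjusted p = 0.0703), -3.13 for Ccl7 (SE 0.74, adjusted p = 0.117), -3.05 for Ccl8 (SE 0.69, adjusted p = 0.112) and -2.56 for Ccl9 (SE 0.57, adjusted p = 0.106), where limma called 0.17% of all genes. All 4 had an unadjusted p under 0.05, as had 14.1% of all genes. Without C57BL/6 exposed replicate 2, the mouse lowest in the 4 genes, all 4 were called, with adjusted p from 0.00976 to 0.0357, and without exposed replicate 3 Ccl2 was called (0.0496).

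**Figure D2:**
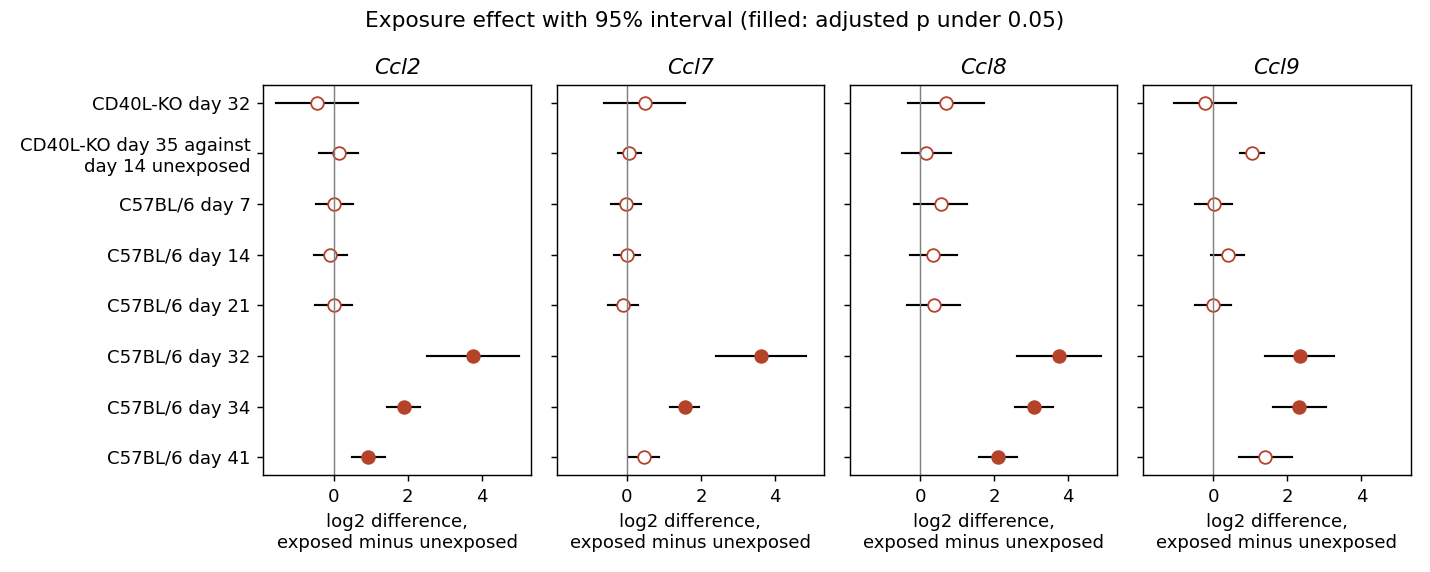
Exposure effect on each chemokine, exposed minus unexposed, in log2 units along the horizontal axis with its 95% interval, for 8 comparisons down the page; filled points have an adjusted p under 0.05. Effects are largest in C57BL/6 mice of days 32 and 34, and at days 7 to 21 and in CD40L-KO mice no point is filled.

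At day 34, in a second experiment with more mice, the 4 genes were again higher in exposed C57BL/6 mice, and none of them overlapped between groups. How many of all genes also did not overlap was not counted. Ccl2 ranged from 61.9 to 216 in the 10 exposed mice (median 95.6), against 16.0, 25.2, 21.5, 29.6 and 13.7 in the 5 unexposed mice. Ccl7 ranged from 15.3 to 57.5 in exposed mice (median 30.9), against 6.21, 5.73, 5.06, 8.40 and 2.32 in unexposed mice. Exposed mouse 9 was highest in both genes. Ccl8 ranged from 226 to 562 in exposed mice (median 341), against 40.1, 45.8, 13.5, 41.3 and 36.4 in unexposed mice. Ccl9 ranged from 235 to 1694 in exposed mice (median 474), against 71.9, 90.5, 76.4, 106 and 74.7 in unexposed mice. The Ccl9 maximum came from mouse 4, and 4 of the exposed mice sat together between 235 and 253.

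All 4 were called higher at day 34, where 5.26% of all genes were. Ccl8 rose by 3.07 (SE 0.25, adjusted p = 1.4e-09), which was the smallest p but 1 of 8252 genes and the rise of rank 4. Ccl9 rose by 2.32 (SE 0.35, adjusted p = 4.43e-05), Ccl2 by 1.89 (SE 0.22, adjusted p = 7.89e-07) and Ccl7 by 1.56 (SE 0.19, adjusted p = 1.82e-06). The calls of Ccl2, Ccl7 and Ccl8 held under each alternative that kept the gene, and leaving out any 1 of the 15 arrays kept all 4 calls. Summed intensity of the 13 squamous transcripts ran from 405 to 9567 in exposed mice, against 346.8 to 12750 in unexposed mice. The Gapdh ratio, log2 of its 3' over its 5' probe set and a sign of RNA quality, ran from -0.16 to 1.59 in exposed mice, against 0.27 to 2.13 in unexposed mice. The part of both in the chemokine differences was not tested beyond the settings given here. Leaving out the squamous arrays left 1 unexposed mouse and gave 2.23 for Ccl2, 1.83 for Ccl7, 3.01 for Ccl8 and 2.56 for Ccl9, the last no longer called (adjusted p = 0.218). Set against the 5 unexposed mice of day 41, which carry no such transcripts, the remaining exposed mice of day 34 were higher by 2.23, 1.54, 3.02 and 1.81, all 4 called; this setting was chosen after seeing the data.

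At day 41 the excess was smaller, and the genes parted in whether they were called. Ccl8 ranged from 90.6 to 302 in 10 exposed mice (median 189), against 52.2, 32.6, 18.5, 41.8 and 45.0 in 5 unexposed mice, without overlap. Ccl9 ranged from 171 to 910.2 in exposed mice (median 326), against 127, 109, 119.8, 153 and 151 in unexposed mice, also without overlap. Ccl2 ranged from 24.1 to 61.9 in exposed mice (median 30.0), against 25.0, 10.2, 16.3, 11.0 and 9.21 in unexposed mice. For Ccl2 8 of the 10 exposed mice lay above every unexposed mouse. Ccl7 ranged from 4.79 to 13.0 in exposed mice (median 9.49), against 6.44, 0.931, 5.83, 3.12 and 8.36 in unexposed mice, and 7 of 10 exposed mice lay above every unexposed mouse. Ccl8 rose by 2.10 (SE 0.25, adjusted p = 9.57e-06) and Ccl2 by 0.94 (SE 0.22, adjusted p = 0.0459), so that 2 of the 4 genes were called, where 0.388% of all genes were called higher. Ccl9 differed by 1.41 (SE 0.35, adjusted p = 0.0672) and Ccl7 by 0.46 (SE 0.19, adjusted p = 0.517). The Ccl2 call was narrow: it was lost on leaving out any of 11 of the 15 arrays (adjusted p up to 0.203), with an offset of 32 (0.52, adjusted p = 0.229), and without the squamous arrays of day 34 in the shared fit (0.0718). Ccl9 was called without exposed replicate 1 (1.53, adjusted p = 0.032), its lowest exposed mouse.

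Between exposed C57BL/6 mice, those of day 41 were lower than those of day 34 in 3 of the 4 genes, where 0.57% of all genes were called lower. Ccl2 fell by 1.36 (SE 0.18, adjusted p = 3.56e-05) and Ccl7 fell by 1.18 (SE 0.16, adjusted p = 3.56e-05), and in neither did the 10 and 10 mice overlap. These had the smallest p but 3 and but 4 of 8252 genes. Ccl8 fell by 0.87 (SE 0.21, adjusted p = 0.0307), a call lost on leaving out any of 10 of the 20 arrays (adjusted p up to 0.0724) and in 6 other settings (adjusted p from 0.0579 to 0.0881), with differences between -0.92 and -0.75. Ccl9 differed by -0.31 (95% interval -0.89 to 0.28, adjusted p = 0.764). The effect of exposure at day 41 minus that at day 34 was -0.95 for Ccl2, -1.10 for Ccl7, -0.97 for Ccl8 and -0.92 for Ccl9, with adjusted p of 0.245, 0.114, 0.295 and 0.517, so limma called no change of the effect itself, and 0.109% of all genes. Without day 34 exposed replicate 7 Ccl7 passed (-1.19, adjusted p = 0.0408). Of the 4 genes 3 had an unadjusted p under 0.05 there, as had 10.7% of all genes.

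At days 7, 14 and 21, no chemokine in an exposed C57BL/6 mouse exceeded the highest unexposed mouse of the series. Ccl2 lay between 1.48 and 29.6 in the 22 exposed mice of these days, Ccl7 between 0.862 and 9.35, Ccl8 between 5.63 and 48.3 and Ccl9 between 60.9 and 197. Limma called 0 of the 4 genes at each of the 3 days, with 0 of 4 at an unadjusted p under 0.05, against 6.6%, 7.94% and 11.6% of all genes; called after adjustment were 0%, 0.267% and 0% of all genes. The largest differences were those of Ccl8, at 0.57 on day 7 (95% interval -0.15 to 1.28), 0.36 on day 14 (-0.27 to 0.99) and 0.36 on day 21 (-0.34 to 1.07), and that of Ccl9 on day 14, at 0.39 (-0.05 to 0.82). For Ccl8 on day 7 all 8 exposed mice lay above the unexposed mean, and 5 above every unexposed mouse. Ccl2 and Ccl7 differed by -0.11 to 0.02 over the 3 days. Their intervals reached at most 0.53 and 0.38, below the lower ends of the day 34 intervals, 1.44 and 1.17. Days 7 to 21 belong to another experiment than day 34, so day and experiment cannot be told apart. The difference between their effects was not tested.

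A further experiment set CD40L-KO mice exposed for 35 days against 5 unexposed CD40L-KO mice labelled day 14. Ccl9 had 158, 235, 195 and 212 in the 4 exposed mice, against 90.3, 125, 83.0, 79.8 and 85.5 in the unexposed mice, without overlap. Ccl8 had 13.3, 28.7, 45.3 and 19.9 in exposed mice, against 12.6, 12.5, 23.4, 29.8 and 33.6 in unexposed mice. Ccl2 had 13.7, 22.2, 18.4 and 27.0 in exposed mice, against 15.0, 29.8, 8.51, 14.3 and 24.6 in unexposed mice, and Ccl7 was at most 4.94 in either group. None of these 3 was separated by exposure. Ccl9 differed by 1.05 (95% interval 0.71 to 1.38, adjusted p = 0.135) and did not pass, although no gene of the 8252 had a smaller p; limma called 0% of all genes here, and 9.34% had an unadjusted p under 0.05. Ccl2 differed by 0.14 (-0.39 to 0.67), Ccl7 by 0.07 (-0.23 to 0.38) and Ccl8 by 0.17 (-0.48 to 0.83). As the unexposed mice are labelled with another day, day and exposure cannot be told apart here.

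The exposure effect of these CD40L-KO mice was lower than that of C57BL/6 mice of day 34 in 3 of the 4 genes, where 0.473% of all genes were called lower. The difference of effects was -2.90 for Ccl8 (SE 0.38, adjusted p = 0.000161), -1.75 for Ccl2 (SE 0.36, adjusted p = 0.0214), -1.49 for Ccl7 (SE 0.31, adjusted p = 0.0227) and -1.28 for Ccl9 (SE 0.50, adjusted p = 0.316). Ccl8 kept its call on leaving out any 1 of 24 arrays. Ccl2 lost it without CD40L-KO exposed replicate 1 (adjusted p = 0.0674), unexposed replicate 2 (0.0513) or unexposed replicate 5 (0.0557), and Ccl7 lost it on leaving out any of 4 CD40L-KO arrays, which were exposed replicates 1 (0.0674), 2 (0.056) and 4 (0.0563) and unexposed replicate 5 (0.0582). Without the arrays that carry squamous transcripts the differences were -2.96 for Ccl8, -2.12 for Ccl2 and -1.75 for Ccl7, and none was called (adjusted p = 0.0548, 0.341 and 0.341). The CD40L-KO mice here had Eif2s3y above Xist and the C57BL/6 mice did not. Strain, experiment and this difference cannot be told apart in this comparison. The unexposed strains of day 14 also came from different experiments and differed in Eif2s3y in the same way. Between them none of the 4 genes was called (differences -0.27 to 0.39), although 37.7% of all genes were.

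Later groups, for which no experiment is stated, have no unexposed mice of their own day. In CD40L-KO mice Ccl8 had 113, 158 and 190.4 at day 75, against 44.1 and 35.3 at day 39. Ccl9 had 275, 284 and 392 at day 75, against 154 and 149 at day 39, and Ccl2 25.5, 29.9 and 41.6 at day 75, against 13.1 and 5.92 at day 39. Ccl2, Ccl8 and Ccl9 did not overlap between these days, while Ccl7, at 7.96, 9.85 and 10.2 on day 75 and 6.04 and 14.1 on day 39, did. None of the 4 was called for day 75 minus day 39, where limma called 3.42% of all genes: the differences were 1.21 for Ccl2 (adjusted p = 0.235), 1.74 for Ccl8 (0.0863), 1.01 for Ccl9 (0.133) and -0.02 for Ccl7 (0.987). Of the 4 genes 3 had an unadjusted p under 0.05, as had 18.8% of all genes. Against unexposed CD40L-KO mice of day 32, those of day 75 were higher in Ccl8 by 3.03 (SE 0.47, adjusted p = 0.00235), and no gene of the 8252 had a larger rise. Called higher in that comparison were 1 of the 4 genes and 5.57% of all genes. With the 3 squamous arrays of that fit left out, Ccl8 was higher by 3.42 and not called (adjusted p = 0.0712), and with the squamous and muscle scores as covariates by 3.64 (0.0631). Ccl2 (0.74), Ccl7 (0.37) and Ccl9 (0.83) were not called.

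In C57BL/6 mice of day 75 Ccl2 had 13.0, 45.9 and 13.4, Ccl7 6.87, 9.79 and 9.08, Ccl8 43.3, 168 and 68.2, and Ccl9 150.2, 137 and 154. Mouse 2 was the highest in Ccl2, Ccl7 and Ccl8 and the lowest in Ccl9. Relative to exposed C57BL/6 mice of day 32, all 4 were lower, without overlap, where 8.96% of all genes were called lower. Ccl2 fell by 3.45 (SE 0.48, adjusted p = 0.000339), Ccl7 fell by 3.22 (SE 0.42, adjusted p = 0.000184), Ccl9 fell by 2.57 (SE 0.32, adjusted p = 0.000132) and Ccl8 fell by 2.40 (SE 0.47, adjusted p = 0.0029). Ccl8 lost that call with the Gapdh ratio as a covariate (-1.51, adjusted p = 0.136). Against unexposed C57BL/6 mice of day 32 none of the 4 genes was called, where limma called 1.47% of all genes; Ccl8 differed by 1.35 (95% interval 0.23 to 2.48, adjusted p = 0.233) and was higher in 3 of 3 mice, and 1 of the 4 genes had an unadjusted p under 0.05, as had 15.6% of all genes. Between the strains at day 75 none was called, where limma called 0.327% of all genes; Ccl9, at 1.05 (95% interval 0.37 to 1.73, adjusted p = 0.551), was the 1 gene of the 4 with an unadjusted p under 0.05, as had 4.22% of all genes. The mice of days 39 and 75 had Eif2s3y above Xist and those of day 32 did not, so day, experiment and this difference cannot be told apart in the comparisons with day 32.

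Of 8 measured receptors and decoy receptors none was called in C57BL/6 mice of day 32 and 2 were called higher at day 34, where 1.35% and 5.26% of all genes were called higher. The median difference over the list was 0.11 at day 32 and 0.01 at day 34, beside -0.01 for all genes at both days. Ccr2, the receptor of Ccl2 and Ccl7, averaged 7.85 ± 0.31 log2 units in exposed mice of day 34 and 7.19 ± 0.23 in unexposed mice (SD, n = 10 and 5). It rose by 0.65 (SE 0.16, adjusted p = 0.00759), and Ccr1, the receptor of Ccl9, by 0.48 (SE 0.14, adjusted p = 0.0346). At day 32 Ccr2 averaged 7.73 ± 0.84 in exposed mice and 6.11 ± 0.36 in unexposed mice, and differed by 1.62 (SE 0.40, adjusted p = 0.0714), and Ccr1 by 1.38 (adjusted p = 0.123). Ccr8, through which mouse Ccl8 acts, differed by 0.13 at day 32 and -0.01 at day 34, without a call. The decoy receptors Ackr1, Ackr2 and Ackr4, which bind chemokines without signalling for migration, and Ccrl2 were called at neither day. In CD40L-KO mice no receptor was called at day 32 or day 35, where 0.0727% and 0% of all genes were. Ccr2 was higher in CD40L-KO mice of day 75 than in unexposed CD40L-KO mice of day 32 by 1.30 (SE 0.33, adjusted p = 0.0234). In that comparison 5.57% of all genes were called higher. Of the 3 unexposed mice 2 carried squamous transcripts, and the part of these in the Ccr2 difference was not tested.

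Of 10 other CC chemokines measured, 2 were called higher at day 32, 2 at day 34 and 1 at day 41 in C57BL/6 mice, where 1.35%, 5.26% and 0.388% of all genes were, with median differences of 0.83, 0.42 and 0.28. Ccl12, which lies between Ccl7 and Ccl8 on the chromosome and is a further ligand of Ccr2, rose by 2.04 (SE 0.36, adjusted p = 0.0252) at day 32 and 1.30 (SE 0.25, adjusted p = 0.00103) at day 34. Ccl17, a ligand of Ccr4 made by dendritic cells, rose by 2.65 (SE 0.49, adjusted p = 0.0291) at day 32, 1.82 (SE 0.29, adjusted p = 9.09e-05) at day 34 and 1.47 (SE 0.29, adjusted p = 0.0104) at day 41. Other neighbours on chromosome 11 were not called at these days. Ccl11, the eotaxin gene between Ccl7 and Ccl12, differed by 0.91 (adjusted p = 0.392) at day 32 and 0.72 (0.119) at day 34, and Ccl1, on the far side of Ccl8, by 0.16 and -0.05. Beside Ccl9, Ccl6 differed by -0.30 and 0.42, Ccl5 by 0.88 and 0.17, Ccl3 by 0.78 and -0.04, and Ccl4 by 0.14 and 0.41 at days 32 and 34, none called. Ccl5, a T cell attractant, was called at day 14 instead, by 0.99 (SE 0.20, adjusted p = 0.0172). In CD40L-KO mice none of the 10 was called at day 32 or day 35, where 0.0727% and 0% of all genes were.

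**Figure D3:**
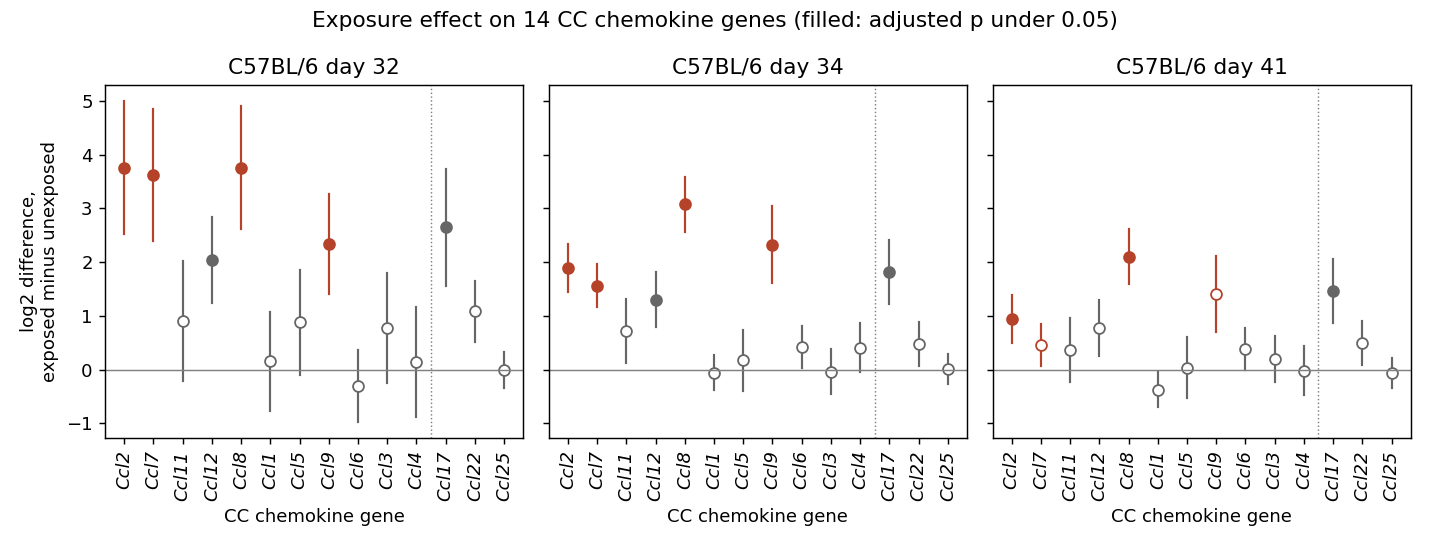
Exposure effect, exposed minus unexposed, in log2 units with 95% intervals for 14 CC chemokine genes in C57BL/6 mice of days 32, 34 and 41; genes left of the dotted line follow their order on chromosome 11, red marks Ccl2, Ccl7, Ccl8 and Ccl9, and filled points have an adjusted p under 0.05. On day 32 Ccl12 is filled at 2.04 and its neighbour Ccl11 is open at 0.91.

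Cytokines, cytokine receptors, signalling proteins and transcription factors linked to the control of these chemokine genes formed a list of 28 measured genes. Some of them, such as Nfkbia, restrain a pathway rather than switch it on. Of the 28, 0 were called at day 32 and 6 were called higher at day 34 in C57BL/6 mice, where 1.35% and 5.26% of all genes were called higher. Their median difference was 0.44 at day 32 and 0.28 at day 34. The 6 were Nfkb2 (0.58, adjusted p = 0.000217), Irf1 (0.65, 0.00267), Tnfrsf1b (0.44, 0.00777), Relb (0.76, 0.0085), Nfkbia (0.49, 0.0156) and Spi1 (0.36, 0.0442). Nfkb2 and Relb are NF-kappaB subunits, Nfkbia restrains NF-kappaB, Irf1 is an interferon-induced transcription factor, Tnfrsf1b is a receptor of tumour necrosis factor and Spi1 specifies myeloid cells. Of the cytokines, Il6 differed by 1.90 (adjusted p = 0.0715) and Il1b by 1.32 (0.157) at day 32, without a call. In CD40L-KO mice 0 of the 28 were called at day 32 and 0 at day 35, where 0.0727% and 0% of all genes were.

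Of 26 monocyte and macrophage markers measured, 9 were called higher in exposed C57BL/6 mice at day 32, where 1.35% of all genes were, 13 at day 34 (5.26%) and 4 at day 41 (0.388%). At day 14 it was 1 of 26, where 0.267% of all genes were called in either direction, and at days 7 and 21 it was 0. The median difference was 0.97, 0.51 and 0.34 at days 32, 34 and 41. Their summed intensity ran from 18920 to 25520 in exposed mice of day 32, against 12730 to 13840 in unexposed mice. At day 34 it ran from 14870 to 24130 in exposed mice, against 12290 to 20490 in unexposed mice, and at day 41 from 15670 to 21590, against 11410 to 14640. In CD40L-KO mice 0 of 26 were called at day 32 (13000 to 13770 in exposed mice, against 12110 to 15030 in unexposed mice) and 0 at day 35 (19940 to 21030, against 15180 to 18510). Of all genes limma called 0.0727% at day 32 and 0% at day 35 in CD40L-KO mice, in either direction. At day 34 the smallest p in this list were those of Chil3, a lectin of alternatively activated macrophages (1.46, adjusted p = 7.89e-07), the complement chains C1qb (1.48, 9.29e-06) and C1qa (1.47, 3.55e-05), and the protease Ctss (0.98, 4.54e-05). Lyz2, the lysozyme of macrophages and type II cells of the alveolus, differed by -0.25 (adjusted p = 0.22), and at most 1 of the 26 had a mean under 4 log2 units in any group. The part of cell number in the chemokine differences was not tested. In C57BL/6 mice T cell markers were called higher for 1 of 7 at day 32 and 3 of 7 at day 34, and neutrophil markers for 0 of 8 and 1 of 8. Called lower at day 34 were 2 of 4 B cell markers and 1 of 7 mast cell markers, where 2.96% of all genes were called lower. None of 9 lung tissue, 3 eosinophil and 6 fibroblast markers was called at day 32, 34 or 41, with 0 of them called in CD40L-KO mice of day 32 or 35.

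Within groups, the genes varied together to different degrees, and some pairs had a negative r. Over the 10 exposed C57BL/6 mice of day 34 Pearson's r between Ccl2 and Ccl7 was 0.89 (Spearman's rho 0.927), whereas r between Ccl8 and Ccl9 was 0.299. At day 41 r was 0.755 between Ccl8 and Ccl9 (rho 0.77) and 0.532 between Ccl2 and Ccl7 (rho 0.345) over 10 exposed mice. The other pairs of day 41 had r of 0.631 for Ccl2 with Ccl8, 0.328 for Ccl2 with Ccl9, 0.0152 for Ccl7 with Ccl8 and -0.329 for Ccl7 with Ccl9. Over the 8 exposed C57BL/6 mice of day 7 r ran from -0.414 for Ccl2 with Ccl7 to 0.531 for Ccl7 with Ccl9. Ccl7 lay near the floor at days 7 and 41, and whether r differed between the days was not tested. Over the deviations of all 95 arrays from their group means r ranged from 0.213 for Ccl7 with Ccl8 to 0.509 for Ccl2 with Ccl7. With the mean log2 level of the 26 macrophage markers on the same arrays, Ccl9 had r of 0.773 at day 34 and 0.784 at day 41, Ccl8 0.332 and 0.811, Ccl2 0.598 and 0.589, and Ccl7 0.472 and 0.164. Over the 6 unexposed C57BL/6 mice of day 14 it was -0.734 for Ccl2, -0.295 for Ccl9, -0.0704 for Ccl8 and 0.0219 for Ccl7. Each point is 1 array, so these values share that array's RNA and scaling, and they are given as descriptions.

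Over the 19 group means, among genes brighter than the median gene, the pattern of Ccl2 was most like that of Saa3 (r of 0.968), an acute-phase serum amyloid, followed by AW112010 (0.939), Tgfbi (0.935), Gbp2 (0.92) and Tap2 (0.912). Ccl7 was most like Tap2 (0.922), a peptide transporter of antigen presentation, then Tgfbi (0.911), C1qc (0.909), C1qb (0.901) and Mcm5 (0.9). Saa3 also led the list for Ccl8 (0.92), before Ctss (0.903), Chil3 (0.901), Lilr4b (0.894) and C1qc (0.891). For Ccl9 the list was Ifi30 (0.94), a thiol reductase of antigen-presenting cells, C1qa (0.935), the macrophage marker Cd68 (0.926), C1qc (0.918) and Cyba (0.913). Between the 4 chemokines r over the 19 means lay between 0.808 for Ccl7 with Ccl8 and 0.915 for Ccl2 with Ccl7, while rho, which gives less weight to the few high groups, lay between 0.321 for Ccl2 with Ccl7 and 0.637 for Ccl7 with Ccl8.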

How the data were processed

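Lung RNA of 95 mice was hybridised, after biotin labelling, to single-colour Affymetrix arrays (labels' protocols). In the deposited table each probe set has a linear intensity on each array; how probes were summarised is not stated. After trimming 2% at each end, array means lay between 99.98 and 99.99, so the deposited intensities share a common scale. Of 12487 probe sets, 10855 have 1 annotated symbol, 396 several and 1236 none, and 10839 matched the RefSeq table; 1 with a missing value was left out. The number of arrays limits the precision.

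Here log2(intensity + 8) was fitted with lmFit and eBayes of limma 3.58.1 (R 4.3.3) as group means, within each experiment's groups, on the brightest probe set of each of 8252 genes, two-sided, with Benjamini-Hochberg adjustment and a threshold of 0.05. Days 39 and 75 were fitted with day 32. Further steps ran in Python 3.11.15 with numpy 2.4.6, pandas 2.3.3 and, for figures, matplotlib 3.10.9. The fits were tested on simulated data. The members, the gene lists, the comparisons and the alternatives were chosen with earlier results of these data known. Named genes are the members, up to 4 of each list by p, receptors and other CC chemokines, the 5 genes most like each member, and array checks. The 6 called genes of the list that holds cytokines and transcription factors, with Il6, Il1b, Lyz2 and Cd68, include some named after their values were seen. Of the lists, 1 to 6 genes each were not measured, except for the neutrophil, mast cell and fibroblast lists.

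Alternatives were offsets of 2 and 32, a filter on dim genes, quantile normalization, all named probe sets, 1 fit of all arrays, the replicate number as a block, squamous arrays left out or as a covariate, and each array left out. Added after seeing the data were the Gapdh ratio or both tissue scores as covariates and the unexposed mice of day 41 as the reference of day 34.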

Additional observations from a re-analysis of the deposited data

Results flagged for a closer look

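In 4 of 48 sets of 4 to 10 mice of 1 group, 1 mouse stood apart from the others in a chemokine by Dixon's criterion at 95%, which chance meets in about 1 of 20 sets. Unexposed C57BL/6 mouse 5 of day 21 had Ccl2 at 4.057 log2 units, against 4.688 to 4.782 in the other 4. Unexposed C57BL/6 mouse 3 of day 34 had Ccl8 at 4.425, against 5.472 to 5.749. Exposed C57BL/6 mouse 4 of day 34 had Ccl9 at 10.73, against 7.926 to 9.401 in the other 9. Unexposed CD40L-KO mouse 2 of day 14 had Ccl9 at 7.054, against 6.455 to 6.619.

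The exposure effect differed between CD40L-KO mice of day 35 and C57BL/6 mice of day 34 by a test of the difference itself, by -1.754 for Ccl2, -1.492 for Ccl7 and -2.899 for Ccl8. The strains come from different experiments, and the CD40L-KO mice alone had Eif2s3y above Xist.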

How the results depend on the processing

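Counts of the 4 chemokines called changed by over 1.5 times, or to or from 0, as follows. With an offset of 32, 1 was called for the strain difference in day 32 effects and 1 at day 41. The filter on dim genes removes Ccl2 and Ccl7, which left 2 called at day 32, 2 between exposed strains of day 32, 2 at day 34, 1 at day 41, 1 for day 41 minus day 34, 1 for the CD40L-KO day 35 minus C57BL/6 day 34 effects and 2 for C57BL/6 day 75 minus day 32. In 1 fit of all 95 arrays 4 were called for the strain difference in day 32 effects, 1 for the change of effect between days 41 and 34 and 1 for CD40L-KO day 75 minus day 39. Of 34 same-number pairs of mice, 7 deviated together with r over 0.1 (range -0.42 to 0.51). Pairs of different number were not compared, so this does not show whether replicate numbers pair mice. With the replicate block 2 were called at day 32; there Ccl2 had adjusted p = 0.0511 and Ccl9 0.0733, Ccl9 passed at day 41 (1.49, adjusted p = 0.0415), and Ccl2 passed neither there (0.97, 0.113) nor for the day 35 and 34 effects (-1.66, 0.0767). Without squamous arrays 0 were called at day 32, 0 between exposed strains of day 32, 1 at day 41, 0 for the day 35 and 34 effects and 0 for CD40L-KO day 75 minus day 32 unexposed. With both tissue scores as covariates 0 were called at day 32 and 0 in that last comparison, and with the Gapdh ratio 1 for the day 35 and 34 effects. Smaller changes of 1 gene were these. For day 41 minus day 34, where Ccl8 lost its call, 2 were called with an offset of 2, the replicate block, either squamous setting, both tissue scores or the Gapdh ratio. For the day 35 and 34 effects 2 were called with an offset of 32 and with the block, for day 34 3 without squamous arrays, for C57BL/6 day 75 minus day 32 3 with the Gapdh ratio, and for day 41 3 in the fit of all arrays. Leaving out each array gave 0 to 4 at day 32, 0 to 4 for the strain difference in day 32 effects, 3 to 4 between exposed strains of day 32, 1 to 3 at day 41, 0 to 1 for the change of effect, 2 to 3 for day 41 minus day 34 and 1 to 3 for the day 35 and 34 effects. A group left with 1 array was taken to vary as the remaining groups do. No value reversed among called genes. Fewer arrays in the small groups, and dim signals of Ccl2 and Ccl7, limit these tests; the cause of the other changes was not tested.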
